A study of Rattus norvegicus with 13 samples.

Results

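The genes described here are those of the extrinsic, or death receptor, pathway of apoptosis apart from tumour necrosis factor itself: the receptors Fas, Tnfrsf21 and Tnfrsf25, the ligand Fasl and the initiator caspase Casp8. They were chosen by symbol in the platform annotation, which gave 5 of the 96 gene probes on the array, 1 for each gene. RNA came from the septal coronary arteries, which supply the wall between the ventricles, of F344 rats, an inbred strain much used in ageing research. One group was 26 months old (aged, 6 arrays) and the other 3 months (young, 7 arrays), with no treatment or genetic change in the labels of either. According to the labels, staining by TUNEL and an assay of fragmented DNA had found increased apoptosis of the endothelium in the aged vessels. Whether every array stands for 1 animal is not stated, so the p-values describe the spread between arrays, part of which may be technical.

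In this pathway a trimeric ligand on one cell clusters its receptor on another. The death domain inside the receptor then binds an adaptor, FADD or TRADD, and the adaptor assembles a complex on which procaspase-8 activates itself. Active caspase-8 cuts effector caspases directly, or cuts Bid and so draws in the mitochondria, while the caspase-like protein c-FLIP (Cflar) blocks it. Fas ligand is best known from activated lymphocytes, and endothelial cells carry Fas but are as a rule resistant to it. Tnfrsf25 (DR3) is known mainly from lymphocytes and binds the ligand TL1A, and Tnfrsf21 (DR6) is a death-domain receptor found in many tissues.

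Signals were deposited relative to beta-actin on the same array, so a ratio of 1 is the beta-actin level. An array carried values for 52 to 80 of the 96 gene probes, and 34.1% of all gene-probe values were blank, for reasons not given. The precision is limited by the number of arrays and by rounding of the ratios to steps of 0.01. The mean log2 ratio to beta-actin of the 12 other gene probes with a value on every array is called the array level below; it moves with those probes and with beta-actin alike. It was -0.16 ± 0.36 on aged and -1.05 ± 0.94 on young arrays (SD, n = 6 and 7), a difference of 0.89 (exact permutation p = 0.045, two-sided, 1716 splits), with young replicates 1 and 2 lowest at -2.59 and -2.0, arrays that carried values for 58 and 60 gene probes. With 1 array left out the exact permutation p ran from 0.011 to 0.10, and it was above 0.05 in 8 of the 13 cases (aged replicates 3, 4, 5 and 6, young replicates 1, 2, 3 and 4). Without young replicates 1 and 2 together the difference was 0.39 (exact permutation p = 0.15). Its part in the results below was not tested beyond the values given beside them. Of 36 marker genes for the cell types of a vessel and the heart wall, the array carried 1, Cd40, listed for leukocytes. Endothelium, smooth muscle, cardiomyocytes and fibroblasts could thus not be checked. Cd40 had a log2 difference of -0.21 (adjusted p = 0.96 by limma), and 1 gene, also found on endothelial cells, is too little to judge leukocytes. In such bulk RNA, fewer cells of a type and less RNA per cell cannot be told apart.

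Of the members, 3 were measured everywhere and 2 were often blank. Tnfrsf21, Tnfrsf25 and Casp8 had a value on all 13 arrays, which holds for 15.6% of the gene probes. Fasl had a value on 7 arrays and Fas on 6. In all, 52 of the 65 member values were present and 13 were blank.

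The rat promoter of Fasl, a gene often blank here, and that of Tnfrsf21, a gene measured on every array, are shown to give the sequence context of these loci; the array does not measure promoters. They are the 250 bases before the gene start in RefSeq's annotation of build GRCr8, both on the minus strand, for Fasl (Faslg in the rat annotation, matched by its synonym) at chr13:76695504-76695753 and for Tnfrsf21 at chr9:25451324-25451573. Capitals mark matches, on either strand, to TATAAA, a core promoter element, and to GGGCGG, the core of sites for Sp1 proteins.
Fasl: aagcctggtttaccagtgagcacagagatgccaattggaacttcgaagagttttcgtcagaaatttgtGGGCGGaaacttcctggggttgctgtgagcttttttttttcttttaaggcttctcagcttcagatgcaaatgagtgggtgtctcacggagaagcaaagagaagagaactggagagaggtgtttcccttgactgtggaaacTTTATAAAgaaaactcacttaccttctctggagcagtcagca
Tnfrsf21: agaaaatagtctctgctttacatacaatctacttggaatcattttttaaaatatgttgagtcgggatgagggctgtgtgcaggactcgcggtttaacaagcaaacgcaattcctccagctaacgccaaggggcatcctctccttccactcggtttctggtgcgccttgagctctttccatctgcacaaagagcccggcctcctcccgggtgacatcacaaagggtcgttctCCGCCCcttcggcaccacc
The Fasl window held a TATAAA, which overlaps its own reverse complement there, and a GGGCGG. On either strand, TATAAA was found in 13.1% of the 27457 windows of this length in the table and GGGCGG in 32.4%. The Tnfrsf21 window held GGGCGG, on the other strand, and no TATAAA. Fasl had 4 CpG dinucleotides and a GC content of 44.4%, and Tnfrsf21 had 12 and 51.6%, against a median of 6 and 52% over all windows. Windows were matched for 4 of the 5 members, all but Casp8. Fas had 6 CpG dinucleotides and a GGGCGG, and Tnfrsf25 had 5 and neither motif. A match is a run of letters and no evidence of a bound factor.

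Fas, the receptor that gives the pathway its best-known form, was dim and sparse in both age groups. It had a value on 4 of 6 aged arrays, 0.04, 0.02, 0.13 and 0.07 on replicates 1, 4, 5 and 6. Among the 7 young arrays it had a value on 2, with 0.02 on replicate 3 and 0.05 on replicate 5. The highest ratios, 0.13 and 0.07, were aged, but the lowest aged ratio equalled the lowest young one, so the groups overlapped. Fas was thus measured on 66.7% of aged and 28.6% of young arrays, a difference that did not pass Fisher's exact test (p = 0.29, adjusted p = 1 over the 96 gene probes; 0% of these passed, and 2.08% had an unadjusted p under 0.05). The ratio averaged 0.065 ± 0.048 on the 4 aged arrays and 0.035 ± 0.021 on the 2 young ones (SD), and the log2 difference of 0.72 over so few arrays was left out of the main test. That difference was 0.055 without young replicate 3 and 1.38 without young replicate 5, and 0.27 without aged replicate 5. At a ratio of 0.02 the rounding alone is 25% of the value in either direction.

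Tnfrsf21 (DR6) was bright and, among the members, had the smallest p in the comparison of ages, without passing it. Its ratios ran from 0.97 to 1.6 with a median of 1.39 on the 6 aged arrays, and from 0.41 to 1.38 with a median of 0.75 on the 7 young arrays. Every aged ratio lay above the young median, and young replicates 2 and 7, at 1.23 and 1.38, reached into the aged range. The geometric mean ratio was 1.71-fold higher in aged arteries (95% interval 0.895 to 3.28; log2 difference 0.78, SE 0.45, adjusted p = 0.64 by limma over 70 probes). It was the gene of the 11th smallest p of the 70. The log2 difference lay between 0.63 and 0.92 with any 1 array left out and was 0.91 without young replicates 1 and 2. It was 0.54 after centring each array on the reference genes, 0.18 with quantile normalization, and -0.11 after centring on the 12 probes of the array level.

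Tnfrsf25 (DR3) was also bright, with a wide spread between arrays. On aged arrays its ratio ran from 0.8 to 2.06 with a median of 1.11, and on young arrays from 0.11 to 2.29 with a median of 1.01. The highest and the lowest ratio of all were both young, on replicates 7 and 1, so the aged values lay inside the young range. The log2 difference was 0.61 (SE 0.58, 95% interval -0.58 to 1.80, adjusted p = 0.86 by limma). Most of that difference came with 1 array: without young replicate 1 it was 0.13, and without young replicates 1 and 2 it was 0.026. It also turned, to -0.28, after centring on the 12 probes of the array level.

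Fasl, the ligand of Fas, was measured on 50% of aged and 57.1% of young arrays (Fisher's exact p = 1). Its aged ratios were 0.05, 0.34 and 0.03 on replicates 4, 5 and 6, and its young ratios 0.14, 0.1, 0.13 and 0.2 on replicates 1, 2, 5 and 7. The young values lay close together, with an SD of 0.41 on the log2 scale, while the aged ones held both the highest and the 2 lowest ratios and had an SD of 1.85. The mean ratios were alike at 0.14 and 0.143, but the mean log2 ratio was 0.79 lower in aged arteries (log2 difference -0.79, SE 0.80, 95% interval -2.47 to 0.89, adjusted p = 0.86 by limma). With each array centred on the 12 probes of the array level the log2 difference was -2.07 (95% interval -3.95 to -0.18), which did not pass adjustment over 70 probes (adjusted p = 0.26 by limma). Under that centring 59 of the 70 tested probes were lower in aged arteries and their median difference moved from 0.058 to -0.76.

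Fas and its ligand were measured together on 3 aged arrays, replicates 4, 5 and 6, and on 1 young array, replicate 5. On aged replicate 5 both stood at their highest ratios, 0.13 for Fas and 0.34 for Fasl. Tnfrsf21, Tnfrsf25 and Casp8 also had their highest aged ratios there, 1.6, 2.06 and 0.32, and the array level was 0.18. Neither was measured on aged replicates 2 and 3 or on young replicates 4 and 6.

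Casp8, the caspase that the receptor complexes activate, showed about the same ratio at both ages. It ran from 0.09 to 0.32 with a median of 0.2 on aged arrays and from 0.06 to 0.47 with a median of 0.2 on young arrays. The aged range lay inside the young one. The log2 difference was 0.032 (SE 0.52, adjusted p = 0.98 by limma), with a 95% interval of -1.04 to 1.11, so a 2.15-fold rise or a fall to 0.486 of the young level would both lie within it. Its sign turned under centring on the reference genes (-0.21) or on the 12 probes (-0.85), with quantile normalization (-0.19), and in 7 of 13 fits with 1 array left out.

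**Figure D1:**
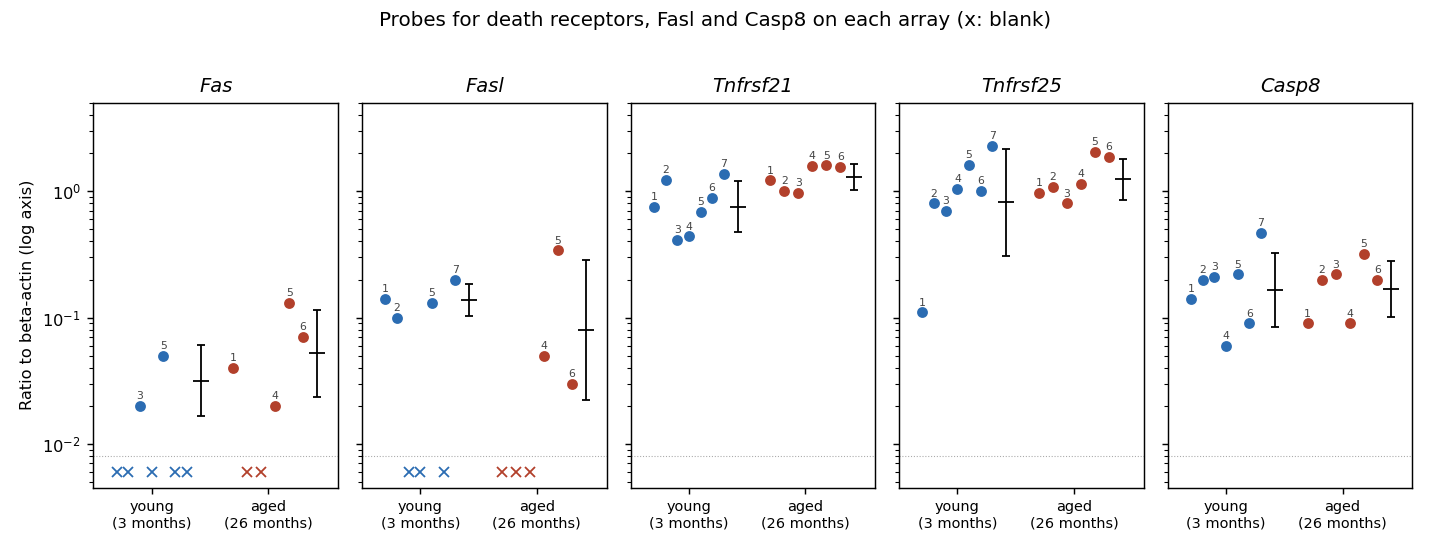
Ratio to beta-actin (log axis) of the 5 probes on each of the 7 young and 6 aged arrays, 1 point an array numbered by replicate, crosses for blank values and black bars for the mean ± SD of log2 ratios. Fas and Fasl are blank on 7 and 6 arrays, and Tnfrsf25 in young replicate 1 stands at 0.11. The age groups overlap for every gene shown, as they do for most gene probes with values in both groups.

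Of the 5 members, 4 had the 3 values in each group that the test needed, and 0 of these 4 passed limma at an adjusted p of 0.05, against 1.43% of the 70 probes tested. At an unadjusted p under 0.05 by limma it was also 0 of 4, against 5.71% of the 70. The exact permutation test gave Tnfrsf21 p = 0.029 (adjusted p = 0.41), so that 0 of the 4 passed there too after adjustment. The unadjusted p of Tnfrsf21 was also under 0.05 by limma on linear ratios, with a pseudocount of 0.02 and with the replicate number as a block, where the adjusted p was 0.24, 0.48 and 0.14. By direction alone 3 of the 4, Tnfrsf21, Tnfrsf25 and Casp8, were higher at 26 months on the log2 scale, against 57.1% of the probes tested. That number was 2 with reference genes as the centre and 0 with the 12 probes, where 29 and 11 of the 70 probes were higher. The median log2 difference was 0.32 for the 4 members and 0.058 for all 70 probes. Among the probes with a value on all 13 arrays, as the 3 higher members had, the median was 0.85. Of the 12 such probes outside the members, 11 were higher in aged arteries.

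**Figure D2:**
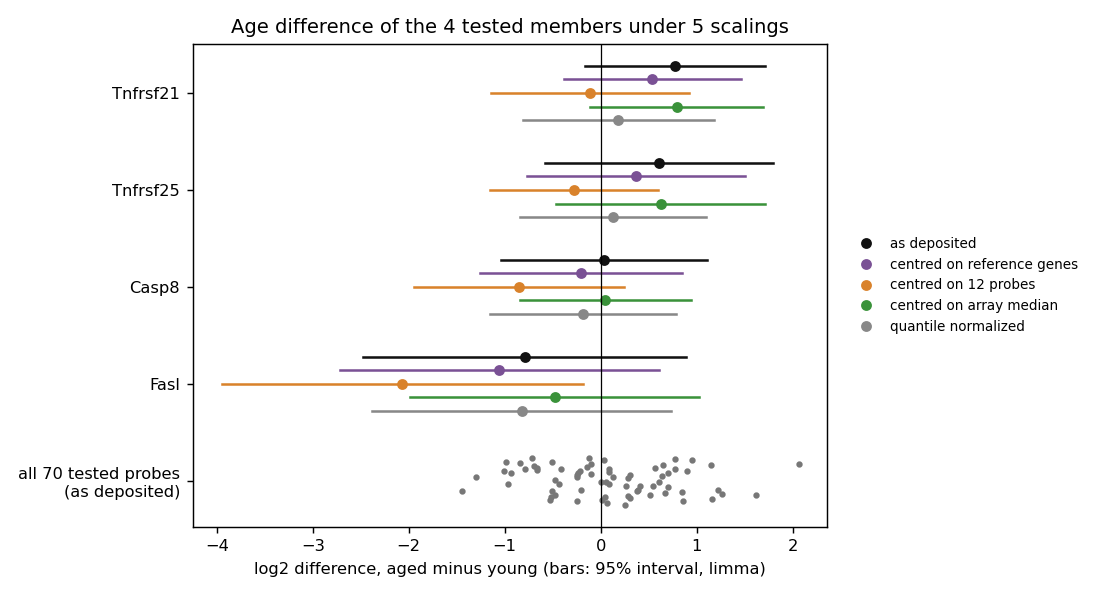
Log2 difference between aged and young arteries for the 4 tested members under 5 scalings of the arrays, with 95% intervals from limma, above the differences of all 70 tested probes as deposited (grey, spread vertically for sight). Tnfrsf21 moves from 0.78 as deposited to -0.11 when centred on the 12 probes, and Fasl moves from -0.79 to -2.07.

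A rank within an array does not depend on the beta-actin signal. The rank is given as a percentile among the gene probes with a value on the same array, where 100 is the brightest. It depends on which probes those are: the age differences given next for Tnfrsf21, Tnfrsf25 and Casp8 are positive, and among the 15 probes measured on every array they were -0.95, -7.30 and -12.7 points (adjusted p = 0.99, 0.84 and 0.63 by limma). Tnfrsf21 stood at 90.0 ± 2.9 on aged and 89.1 ± 6.6 on young arrays (SD, n = 6 and 7), a difference of 0.91 points (95% interval -7.08 to 8.91, adjusted p = 0.99 by limma). Its highest ranks were on young replicates 1 and 2, at 99.1 and 97.5, the 2 arrays of lowest level. Tnfrsf25 stood at 89.2 ± 1.6 and 87.6 ± 9.6, a difference of 1.66 points (95% interval -7.98 to 11.3, adjusted p = 0.99 by limma). On young replicate 1 it had a rank of 66.4, while on the other 12 arrays it lay between 87.3 and 94.2.

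Casp8 held a middle to upper rank, 66.5 ± 6.7 on aged and 66.3 ± 19.0 on young arrays (SD, n = 6 and 7), 0.19 points apart (95% interval -16.9 to 17.3, adjusted p = 0.99 by limma), and -5.61 points without young replicate 4. The young arrays ranged from 31.5 on replicate 4 to 85 on replicate 2, and the aged arrays from 57.7 to 74.1. Fasl averaged 44.8 ± 30.7 on 3 aged and 63.0 ± 13.97 on 4 young arrays (SD), a difference of -18.2 points (95% interval -53.6 to 17.2, adjusted p = 0.89 by limma). Fas ranked between 10 and 50.7 on 4 aged arrays and at 3.45 and 21.2 on 2 young ones. Of the 4 members with a rank test 0 passed, and 0 had an unadjusted p under 0.05, against 1.43% and 4.29% of the 70 probes.

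**Figure D3:**
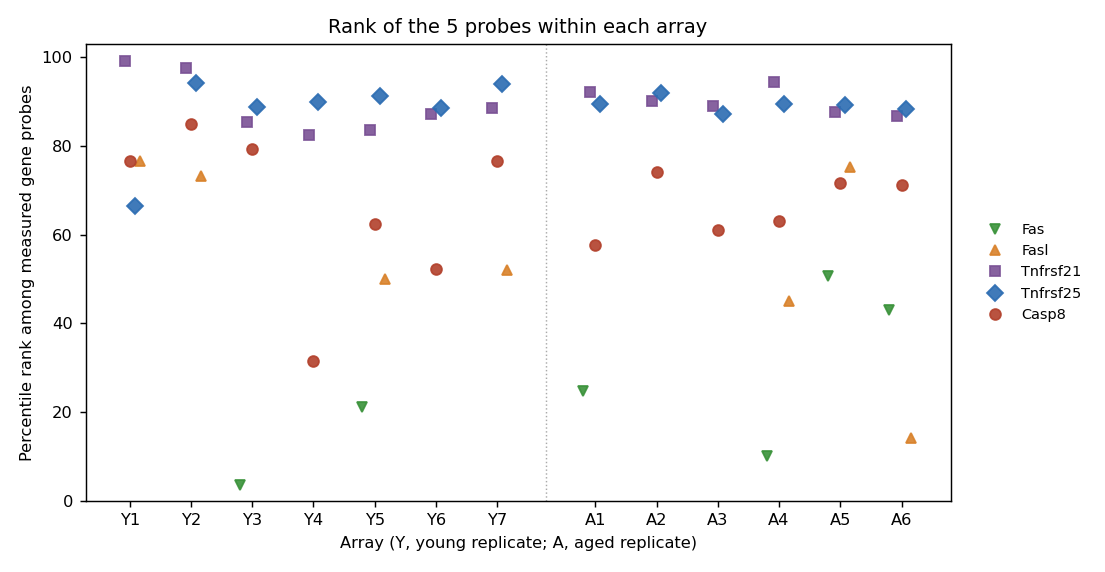
Percentile rank of each of the 5 probes among the gene probes measured on the same array, young arrays (Y1 to Y7) left of the dotted line and aged arrays (A1 to A6) right of it. Tnfrsf21 and Tnfrsf25 stay near the top on all arrays except Tnfrsf25 on Y1 (66.4), Casp8 ranges from 31.5 to 85, and Fas stays at or below 50.7.

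The ratio of 2 members on the same array is likewise free of the denominator. Each such ratio also carries the brightness of its 2 probes, so its size says nothing about which RNA was more abundant, and only its change between arrays was read. Of the 10 pairs of members, 6 had both values on at least 3 arrays of each group. The ratio of Tnfrsf21 to Casp8 ran from 4.41 to 17.7 on aged arrays and from 1.95 to 9.89 on young arrays. It was higher in aged arteries by 0.74 on the log2 scale (95% interval -0.52 to 2.0, adjusted p = 0.70 by limma over 1747 pairs of probes), and the ranges overlapped. The ratio of Tnfrsf21 to Tnfrsf25 lay between 0.777 and 1.39 on the 6 aged arrays. On young arrays it spread from 0.423 to 6.82, with replicate 1 highest and replicate 2 next at 1.54. Its mean difference was 0.17 on the log2 scale (95% interval -1.19 to 1.52, adjusted p = 0.95 by limma), and it was 0.65 without young replicate 1.

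Fasl relative to Tnfrsf25 and to Tnfrsf21 had the largest log2 differences of the 6 pairs, without passing the test. Over Tnfrsf25 it was 0.0439, 0.165 and 0.016 on aged replicates 4, 5 and 6, and 1.27, 0.125, 0.0807 and 0.0873 on young replicates 1, 2, 5 and 7. The log2 difference was -1.91 (95% interval -4.13 to 0.32, adjusted p = 0.57 by limma), and -0.97 without young replicate 1, where Tnfrsf25 was at its lowest. Over Tnfrsf21 it was 0.0314, 0.213 and 0.0192 on the aged arrays and 0.187, 0.0813, 0.188 and 0.145 on the young ones, a log2 difference of -1.50 (95% interval -3.48 to 0.48, adjusted p = 0.61 by limma). In both ratios aged replicate 5 lay within the young range or above it and aged replicates 4 and 6 lay below every young array. Fasl over Casp8 had a log2 difference of -0.42 and Tnfrsf25 over Casp8 one of 0.58, with adjusted p-values of 0.91 and 0.81 by limma. Without young replicate 1 these differences were -0.17 and 0.13. Of the 6 pairs 0 passed, against 0% of the 1747, and 0 had an unadjusted p under 0.05, against 8.82%.

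The 3 members measured on every array correlated unequally, in an order that changed without young replicates 1 and 2, with the array level. Tnfrsf25 rose with it over the 13 arrays (Pearson r = 0.836, permutation p = 0.00045, adjusted p = 0.0013 over the 15 probes measured on every array; Spearman rho = 0.770, permutation p = 0.0029, adjusted p = 0.0072). Such a correlation was common: down to the 12th of the 15 probes in the order of r, the adjusted permutation p was 0.016 or lower. Probe and level share the beta-actin denominator of their array, and its part in r was not tested. Leaving out young replicates 1 and 2, the arrays farthest from the median level, gave Tnfrsf25 an r of 0.664. Within the groups r was 0.879 on young arrays (exact permutation p = 0.0036, n = 7) and 0.587 on aged arrays (exact permutation p = 0.28, n = 6).

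Tnfrsf21 had r = 0.404 (permutation p = 0.17, adjusted p = 0.19) and rho = 0.659 (permutation p = 0.017, adjusted p = 0.031) over the same arrays. Without young replicates 1 and 2 its r was 0.815, and on those 2 arrays its ratios were 0.75 and 1.23. Within the groups r was 0.062 on young (exact permutation p = 0.90, n = 7) and 0.377 on aged arrays (exact permutation p = 0.45, n = 6), and the young value includes those 2 arrays. Casp8 had r = 0.267 (permutation p = 0.38, adjusted p = 0.41) and rho = 0.412 (permutation p = 0.16, adjusted p = 0.17), with r = 0.556 without the same 2 arrays. Within the groups its r was 0.224 on young (exact permutation p = 0.63, n = 7) and 0.706 on aged arrays (exact permutation p = 0.16, n = 6). Among the 15 probes Tnfrsf25, Tnfrsf21 and Casp8 were 8th, 13th and 14th in the order of r. Whether these correlations differ from each other was not tested.

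**Figure D4:**
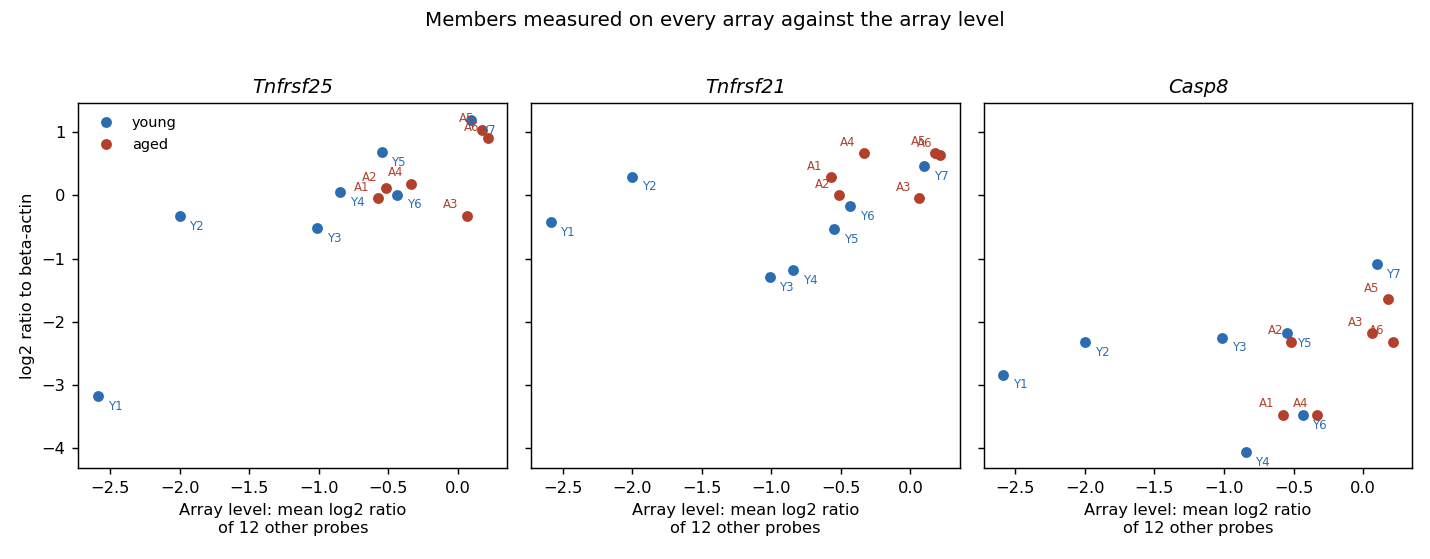
Log2 ratio to beta-actin of Tnfrsf25, Tnfrsf21 and Casp8 against the array level, the mean log2 ratio of 12 other probes measured on every array, for 7 young (Y1 to Y7) and 6 aged (A1 to A6) arrays. Tnfrsf25 follows the level (r = 0.836), while Tnfrsf21 (r = 0.404) and Casp8 (r = 0.267) are not at their lowest on Y1 and Y2, the arrays of lowest level. Without Y1 and Y2, r is 0.664 for Tnfrsf25, 0.815 for Tnfrsf21 and 0.556 for Casp8, and the difference between members was not tested.

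The probes whose pattern over the arrays was most like each of these members were taken from 36 gene probes that shared at least 10 arrays with it, and the values describe these arrays only. Arrays of both ages were pooled, and the part of the age differences in r was not tested. Those log2 differences were 0.78 for Tnfrsf21, 0.95 for Traf1, 2.06 for Tnf and 0.90 for Casp2. For Tnfrsf21 they were Traf1, an adaptor of TNF receptors (r = 0.778, rho = 0.714, 13 arrays), Tnf (r = 0.659, rho = 0.554, 12 arrays) and Casp2 (r = 0.606, rho = 0.624, 13 arrays). With the array level subtracted from both genes, r was 0.825 for Traf1, 0.586 for Tnf and 0.541 for Casp2, and Traf1 was again highest of the 36. Without the 2 arrays farthest from the median of Tnfrsf21, r was 0.576, 0.475 and 0.512 in the same order. For Tnfrsf25 they were Bik, a BH3-only protein (r = 0.877, rho = 0.886, 13 arrays), the unnamed probe 78 (r = 0.866, rho = 0.784, 13 arrays) and Mcl1, an anti-apoptotic Bcl-2 protein (r = 0.855, rho = 0.840, 11 arrays). With the level subtracted these were 0.543, 0.577 and 0.367, and without the 2 arrays farthest from the median of Tnfrsf25 they were 0.760, 0.707 and 0.739. For Casp8 they were Cd40, a TNF receptor of antigen-presenting and endothelial cells (r = 0.599, rho = 0.685, 10 arrays), Cd70 (r = 0.570, rho = 0.499, 10 arrays) and Tnfsf11 (r = 0.480, rho = 0.417, 11 arrays). With the level subtracted these were 0.775, 0.661 and 0.463. Without the 2 arrays farthest from the median of Casp8, r was 0.621 for Cd40, 0.095 for Cd70 and 0.167 for Tnfsf11. All these probes share the beta-actin denominator of their array, and subtracting the level puts a common term in both genes. Among themselves the members were only loosely alike, with r = 0.392 for Tnfrsf21 and Tnfrsf25, 0.313 for Tnfrsf21 and Casp8 and 0.318 for Tnfrsf25 and Casp8 over 13 arrays. With the level subtracted these were -0.013, 0.551 and 0.061.

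Around these members, 21 further genes of the pathway were listed, of which 13 had a named probe and 9 had enough values for the test. The list was chosen with earlier results of these data known, so the counts below are no independent test of it. Of the 9, 1 (Tnf) passed limma as higher in aged arteries and 0 as lower. Tnf was itself the only 1 of the 70 probes that passed (1.43%). By direction alone 7 of the 9 were higher and 2 lower, against 57.1% of the 70 higher. The median log2 difference of the 9 was 0.64, against 0.058 over the 70. Centred on the reference genes 7 were again higher, with a median of 0.36, and centred on the 12 probes 4 were higher and 5 lower, with a median of -0.045, against -0.19 and -0.76 over the 70. Among adaptors and regulators, Fadd, the adaptor of Fas, had a log2 difference of -0.66, Cflar, the inhibitor of caspase-8, of -0.98 and Traf2 of 0.51. Among further ligands, Tnf had a log2 difference of 2.06 (SE 0.51, adjusted p = 0.031 by limma), the lymphotoxin gene Lta of 1.15, and Tnfsf10, which encodes the ligand TRAIL, of 0.29. Tnf did not pass after centring on the reference genes or on the 12 probes, with blanks set to 0.01, by the exact permutation test or with the replicate number as a block, where 0 probes of the array did. The same held in 8 of 13 fits with 1 array left out (aged replicates 1, 2, 3, 4 and 6, young replicates 3, 5 and 6). In the rank test Tnf did pass, 40.9 points higher in aged arteries (adjusted p = 0.013 by limma). The genes downstream of caspase-8 were Bid with 0.64, Casp6 with 0.86 and Dffa, the inhibitor of the apoptotic nuclease, with 1.22. Apart from Tnf the adjusted p-values of these genes ran from 0.47 to 0.96 by limma. Fadd, Cflar, Traf2, Tnfsf10, Bid and Casp6 were blank on 3 to 7 of the 13 arrays, and the receptors Tnfrsf1a and Tnfrsf10b and the adaptor Cradd, with values on 4 arrays each, and the nuclease gene Dffb, with values on 6, were too sparse to test.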

How the data were processed

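The deposited table holds, for 100 probes on 13 single-colour arrays of total RNA, a linear ratio to beta-actin made by the authors: the mean of the 2 Actb spots was 1 on each array, which was read from the values. The scanner and the background correction are not given. Ratios carry 2 decimals and ran from 0.01 to 4.51, and blanks stayed missing. The 4 spots of 3 reference genes (Actb, Gapdh, Rpl13a) were kept out of the tests. In the platform annotation 91 probes had 1 symbol, 0 had several and 9 were unlisted. None of its gene IDs (0) and 87 of its 90 symbols were in the rat gene table, so the organism of the probe sequences is not settled here.

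Groups came from the sample descriptions and replicate numbers from the titles. The members, lists and tests were chosen with earlier results of these data known. Log2 ratios, with no pseudocount, were fitted with limma 3.58.1 in R 4.3.3 (lmFit, eBayes, two-sided, age as the only factor) over the 70 gene probes with at least 3 values in each group, with Benjamini-Hochberg adjustment over all of them and a threshold of 0.05. Percentile ranks and log2 ratios of all pairs of probes were fitted the same way, and detection was tested with Fisher's exact test over 96 probes. Correlations used 100000 permutations, or all orders within a group. The scripts were tested on simulated data. Text names the 5 members, the pathway list and the 3 probes most correlated with each member that had at least 10 values. Alternatives were other scalings, blanks at 0.01, a pseudocount of 0.02, other filters, other tests, a block for the replicate number, and arrays left out.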

Additional observations from a re-analysis of the deposited data

Results flagged for a closer look

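Within each age group the highest and lowest arrays were compared with the rest for the ratios, ranks and within-array ratios of the members, in 33 groups of values, of which 4 held an array that stood apart. Chance marks about 1 in 20 such groups, and the groups share arrays and genes. Tnfrsf25 on young replicate 1 was far below the other young arrays on the log2 scale, at a ratio of 0.11 against 0.7 for the next, and on its linear scale it did not stand apart. The same value gave a percentile rank of 66.4 against 88.6 for the next young array, and a ratio of Fasl to Tnfrsf25 of 1.27 against 0.125. Casp8 on young replicate 7, at a ratio of 0.47 against 0.22, stood apart on the linear scale and not on the log2 scale.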

How the results depend on the processing

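0 members passed the threshold under any alternative or with any array left out. Among Tnfrsf21, Tnfrsf25, Casp8 and Fasl the lowest adjusted p was 0.14 (Tnfrsf21, limma with the replicate block). Fas entered the fits with blanks at 0.01 and with at least 2 values in each group. Its log2 differences there were 1.11 and 0.72, and its adjusted p was not recorded. Signs were less stable. Tnfrsf21 and Tnfrsf25 turned with centring on the 12 probes (-0.11 and -0.28). Casp8 turned with that centring (-0.85), with reference centring (-0.21), quantile normalization (-0.19) and linear ratios (-0.012), and ran from -0.21 to 0.28 with 1 array left out. The scalings moved the median difference of the tested probes from 0.058 to -0.19 (reference genes), -0.76 (12 probes), 0.17 (array median) and -0.033 (quantile). In ranks, Casp8 turned with blanks ranked at the bottom (-2.60), and Tnfrsf21, Tnfrsf25 and Casp8 turned when ranked among the 15 probes measured on every array (-0.95, -7.30 and -12.7). With 1 array left out the rank differences ran from -0.21 to 2.58, -1.88 to 2.75 and -5.61 to 3.31, the ratio of Tnfrsf21 to Tnfrsf25 from -0.022 to 0.65 and Fasl detection from -17.1 to 2.86 percentage points. The cause was not tested.

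With the replicate number as a block over 6 pairs the log2 differences were 0.92 for Tnfrsf21, 0.86 for Tnfrsf25, 0.28 for Casp8 and 1.39 for Fasl. Fasl also turned in rank (25.4) and against Tnfrsf21, Tnfrsf25 and Casp8 (0.17, 1.03 and 0.85). This fit needs both arrays of a pair, and Fasl had both in 1 pair. Of the 6 same-numbered pairs 3 had deviations correlated over 0.1 (-0.20 to 0.36), and 3 of 6 aged arrays correlated best with their own number, so the numbers were not taken to pair the arrays. Of the 70 probes 1 passed as reported, 2 with linear ratios, and 0 under 5 of the 12 other settings and in 8 of 13 fits with 1 array left out. Leaving out aged replicates 4, 5 or 6 left too few Fasl values for its test.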
